A study of Mus musculus with 2 samples.

Results

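Interferon-responding macrophages are macrophages of the heart that carry transcripts of genes switched on by interferon. Here they were the cells whose complement transcripts C1qa, C1qb and C1qc made up at least 0.3% of their UMIs (unique molecular identifiers, which mark single captured transcripts) and which held at least 3 UMIs, and at least 0.1% of their UMIs, of the 5 interferon-induced genes Ifit1, Ifit2, Ifit3, Rsad2 and Cxcl10. Cells with more than 1 UMI of Ly6c2 (a monocyte marker), of Lyve1 and Timd4 (resident macrophages), of Spp1 and Gpnmb (lipid-associated macrophages) or of Mki67, Top2a and Birc5 (cell division) were left out. These criteria gave 895 members among 12407 cells that passed a filter on quality (500 or more UMIs, 200 or more genes, and mitochondrial UMIs not above 10%). Macrophages that met every criterion but the interferon one served as the comparison, 2062 cells in the LOY library and 3060 in the control library. The cells were thus chosen by measured values, and what follows describes them.

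The cells came from left ventricles of mice that had received either LOY bone marrow (loss of the Y chromosome) or control bone marrow. In every mouse TAC had been performed, transverse aortic constriction, in which the aorta is tied down so that the left ventricle pumps against a higher pressure. Live CD45+ RFP+ leukocytes, by the labels descended from the transplanted marrow, were sorted from 3 mice per condition, and the 3 were combined after the sort into 1 droplet library per condition. Mouse strain, age, time after surgery and the way the Y chromosome was lost are not given in the sources used here. With 1 library per condition there is no replicate check and no test, so every interval below (95%) covers counting error only, and a difference between libraries cannot be told apart from one between conditions.

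The LOY library held 5475 barcodes with 18710715 UMIs and the control library 7276 barcodes with 42640861 UMIs. Members had a median of 3245 UMIs and 1314 genes in the LOY library, against 5534 UMIs and 1889 genes in the control library. Levels are therefore given as CPM, the summed UMIs of a gene scaled to the same total of UMIs in every group of cells (counts per 1000000). The libraries shared 31 barcode sequences, among them 1 LOY member and 0 control members. The sequence for RFP had 0 UMIs in both libraries. The Y-linked genes Ddx3y, Eif2s3y, Kdm5d and Uty summed to 26 UMIs in LOY members, 15.0 CPM (exact Poisson interval 9.81 to 22), against 239 UMIs in control members, 93.9 CPM (82.3 to 107). Of the 4 genes 3 reached the minimum for a measured gene, and those 3 were lower in the LOY members, as the labels of the libraries state.

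Type I interferon signals through the receptor chains Ifnar1 and Ifnar2 to the kinases Jak1 and Tyk2. A complex that includes Stat2 and Irf9 then binds the interferon-stimulated response element (ISRE) in promoters and turns on genes that block viral RNA and protein, sense nucleic acids and attract leukocytes. Interferon gamma signals through Ifngr1 and Ifngr2 and acts on a different element, the gamma-activated site (GAS), and it is a strong inducer of guanylate-binding proteins and of Cxcl9. Macrophages of the injured heart are known to switch on such genes without an infection.

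Promoters of the genes that set these cells apart often hold the ISRE core. The motif searched was GAAA, any 2 bases and GAAA, on either strand, in windows that ran from 250 bases before to 50 after the start of transcription (RefSeq, GRCm38.p6, the assembly that mm10 names). Of all 27025 genes in that table, 3.99% had a match, against 4 of the 5 genes of the rule. Of the 15 genes outside the rule that were highest over the comparison cells, 13 were in that table and 7 (53.8%) held the motif. It was found for 16 of 29 matched antiviral effector genes (55.2%), 10 of 11 matched interferon-inducible GTPases (90.9%), 7 of 16 nucleic acid sensing genes (43.8%), 5 of 17 MHC class I genes (29.4%) and 1 of 11 chemokine genes (9.09%). The motif was also found for 3 of 14 interferon signalling genes (21.4%), 1 of 8 MHC class II genes (12.5%) and 1 of 9 macrophage identity genes (11.1%). The chemokine list leaves out Cxcl10, which is a gene of the rule, and its 1 match was Cxcl14. The GAS motif, TTCNNNGAA on either strand, stood in 9.55% of all genes, in 6 of the 11 GTPases (54.5%) and in 7 of the 29 antiviral effectors (24.1%). Gbp5 held GAS matches beside its ISRE core, whereas the window of Cxcl9 held neither motif. These lists were not tested against the rest, and a match is a stretch of letters, not a shown binding site. The windows below show the match, in capitals, for 4 genes of the rule, for Isg15, the most abundant in members of the 15 genes outside the rule that differed most from the comparison cells, and for 2 GTPases that followed Cxcl9. Each reads 5′ to 3′ along the strand of its gene.
Ifit1, chr19:34640755-34640843 (+): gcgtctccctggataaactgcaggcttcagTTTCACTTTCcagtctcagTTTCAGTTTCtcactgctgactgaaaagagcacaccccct
Ifit3, chr19:34583343-34583446 (+): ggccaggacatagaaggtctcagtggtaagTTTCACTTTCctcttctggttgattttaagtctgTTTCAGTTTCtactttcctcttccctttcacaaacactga
Rsad2, chr12:26456533-26456602 (-): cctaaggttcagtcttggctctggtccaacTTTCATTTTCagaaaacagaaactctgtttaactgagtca
Cxcl10, chr5:92349063-92349132 (-): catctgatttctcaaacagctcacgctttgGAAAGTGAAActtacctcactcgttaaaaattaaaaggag
Isg15, chr4:156200845-156200926 (-): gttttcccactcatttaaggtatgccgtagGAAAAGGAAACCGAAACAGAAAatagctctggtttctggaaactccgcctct
Gbp2, chr3:142620574-142620643 (+): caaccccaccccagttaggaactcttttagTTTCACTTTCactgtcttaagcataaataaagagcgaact
Gbp5, chr3:142496739-142496808 (+): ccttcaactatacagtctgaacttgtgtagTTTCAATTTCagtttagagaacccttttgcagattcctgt
Ifit1 and Ifit3 each hold 2 matches in the window shown, and the Isg15 window holds 3 that overlap in 1 run.

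Interferon-responding macrophages were more frequent in the LOY library. They were 493 of 5415 LOY cells (9.10%, exact Clopper-Pearson interval 8.35% to 9.90%) and 402 of 6992 control cells (5.75%, 5.22% to 6.32%). The share in the LOY library was 1.58 times that in the control library (exact interval 1.39 to 1.81). Among macrophages that met the other criteria, 493 of 2555 LOY cells (19.3%, 17.8% to 20.9%) and 402 of 3462 control cells (11.6%, 10.6% to 12.7%) were members. The criterion of 3 UMIs is harder to meet in the shallower library, and with every cell thinned to 2000 UMIs the members were 11.1% of LOY cells (1155 shallower cells left out) and 6.90% of control cells (671 left out). At 1000 UMIs they were 7.45% of LOY cells and 3.95% of control cells. Of B cells, 2 of 192 LOY cells (1.04%) and 0 of 674 control cells met the interferon criterion. A count of 0 allows up to 0.546% of control B cells (upper exact bound). B cells were shallower than members, with a median of 883 UMIs in the LOY and 2042 UMIs in the control library. The minimum of 3 UMIs is therefore harder for B cells to reach, and their shares are not a matched background. Among all cells under the C1q threshold, 165 of 1130 LOY cells (14.6%, 12.6% to 16.8%) and 118 of 2019 control cells (5.84%, 4.86% to 6.96%) met the interferon criterion.

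**Figure D1:**
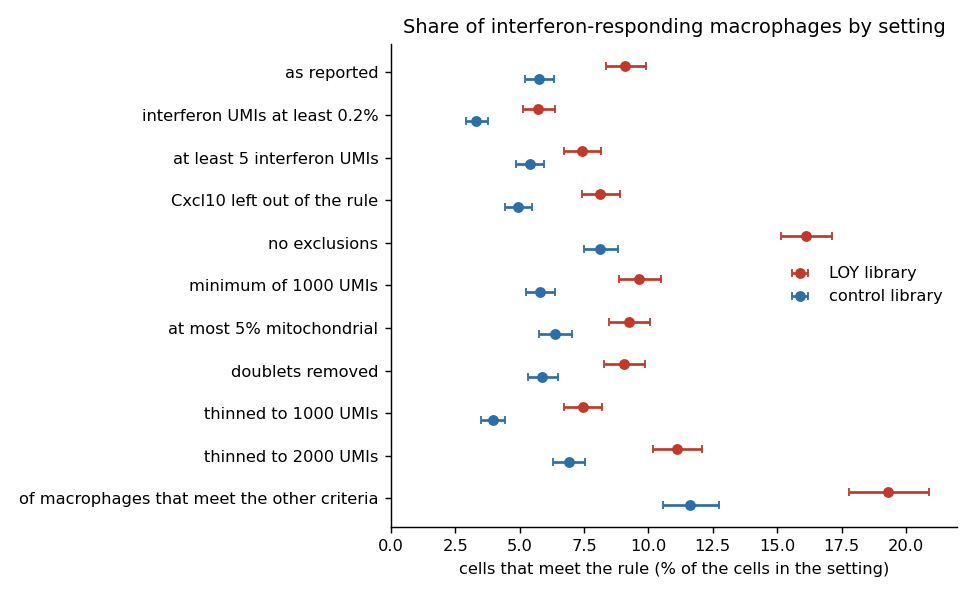
Share of cells that met the rule (x axis, %) under each setting (rows) in the LOY library (red, upper point) and the control library (blue, lower point); bars are exact 95% intervals for counting error. The LOY point lies to the right of the control point in each of the settings drawn, 9.10% against 5.75% as reported.

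The macrophage states that the rule left out held interferon-responding cells as well. Of complement-positive cells over the limit of Ly6c2, 125 of 303 LOY cells (41.3%, 35.7% to 47.0%) and 18 of 55 control cells (32.7%, 20.7% to 46.7%) met the interferon criterion. Cells over the limit of Spp1 and Gpnmb met it in 155 of 689 LOY cells (22.5%) and 25 of 151 control cells (16.6%, 11% to 23.5%). Cells over the limit of the division genes met it in 84 of 473 LOY cells (17.8%) and 23 of 241 control cells (9.54%). Cells over the limit of Lyve1 and Timd4 met it in 80 of 522 LOY cells (15.3%) and 117 of 1191 control cells (9.82%). The share was higher in the LOY library in all 4 states, and the intervals of the libraries overlapped for the Ly6c2 and the Spp1 and Gpnmb states. In both libraries the Ly6c2 state had the highest share and the Lyve1 and Timd4 state, or the dividing state, the lowest.

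The 5 genes that chose the members are given only as a description. Ifit3, which binds foreign RNA with its relatives, had 1117 CPM in LOY members and 1055 CPM in control members, with a UMI in 90.5% of LOY members and 89.6% of control members. Ifit2 had 623 CPM in LOY members and 639 CPM in control members, and Ifit1 had 435 CPM in LOY members and 424 CPM in control members. Rsad2 encodes viperin, which makes a chain-terminating nucleotide. It had 912 CPM in LOY members and 577 CPM in control members, a ratio of 1.58 (exact interval 1.47 to 1.70), whereas the ratio was 1.03 for Ifit1, 0.975 for Ifit2 and 1.06 for Ifit3. Cxcl10, a chemokine for T cells, had 1052 CPM in LOY members and 1259 CPM in control members. The mix was uneven from cell to cell: all 5 genes were seen in 24.3% of LOY members and 27.1% of control members, and 48.3% of LOY members and 49.0% of control members had no Cxcl10 UMI.

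The members spread from weak to strong without a gap at the threshold. Their summed UMIs of the 5 genes had a median of 8 in the LOY library (quartiles 5 and 17, highest 139) and 14 in the control library (quartiles 8 and 28, highest 259). These sums follow depth, and as a share of a cell's UMIs the median was 0.261% in LOY members and 0.232% in control members. Members at exactly 3 UMIs numbered 41 in the LOY library and 11 in the control library, and comparison macrophages at 2 UMIs numbered 171 in the LOY and 258 in the control library. A further 82 LOY and 367 control comparison macrophages held 3 or more UMIs but fell short of the minimum share. Their levels are not given here. Median depth was 2400 UMIs at 3 and 3048 at 2 in the LOY library, and 2694 and 5478 in the control library. The levels below thus compare cells of unequal depth and cannot isolate a step at the threshold. Isg15, which the rule did not use, had 919 CPM in LOY members at 3 UMIs and 447 CPM in LOY comparison macrophages at 2 UMIs. In the control library it had 810 CPM in the members at 3 UMIs and 267 CPM in the comparison macrophages at 2 UMIs. Other interferon genes were not all higher in those members. Iigp1 had 64.9 CPM in them and 102 CPM in the comparison macrophages at 2 UMIs in the LOY library. In the control library these levels were 77.2 CPM (2 UMIs of Iigp1) and 96.3 CPM. Oasl2 had 357 CPM in the members at 3 UMIs and 217 CPM in the comparison macrophages at 2 UMIs in the LOY library. In the control library these levels were 38.6 CPM (1 UMI of Oasl2) and 144 CPM.

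Several genes outside the rule climbed in steps with the share of UMIs taken by the 5 genes. From comparison macrophages with 0 such UMIs, through those above 0, to members from 0.1%, 0.2%, 0.4% and 0.8%, Isg15 had 133, 380, 1065, 1607, 2535 and 3159 CPM at the LOY steps. In the control library the same steps gave 86.8, 290, 1139, 1887, 2389 and 4377 CPM. Usp18, a protease that removes Isg15 from proteins and dampens the receptor, climbed from 22.3 to 651 CPM over the LOY steps and from 17.7 to 569 CPM over the control steps. Tnfsf10, the death ligand TRAIL, had 2.30 CPM in the lowest and 195 CPM in the highest LOY step, and 3.14 CPM in the lowest and 102 CPM in the highest control step. The receptor chain Ifnar1 stayed between 38.0 and 90.9 CPM over the LOY steps, with only 8 UMIs in the highest, and between 67.8 and 93.8 CPM over the control steps. C1qa lay between 10988 and 13558 CPM over the LOY steps and between 9028 and 9604 CPM over the control steps.

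**Figure D2:**
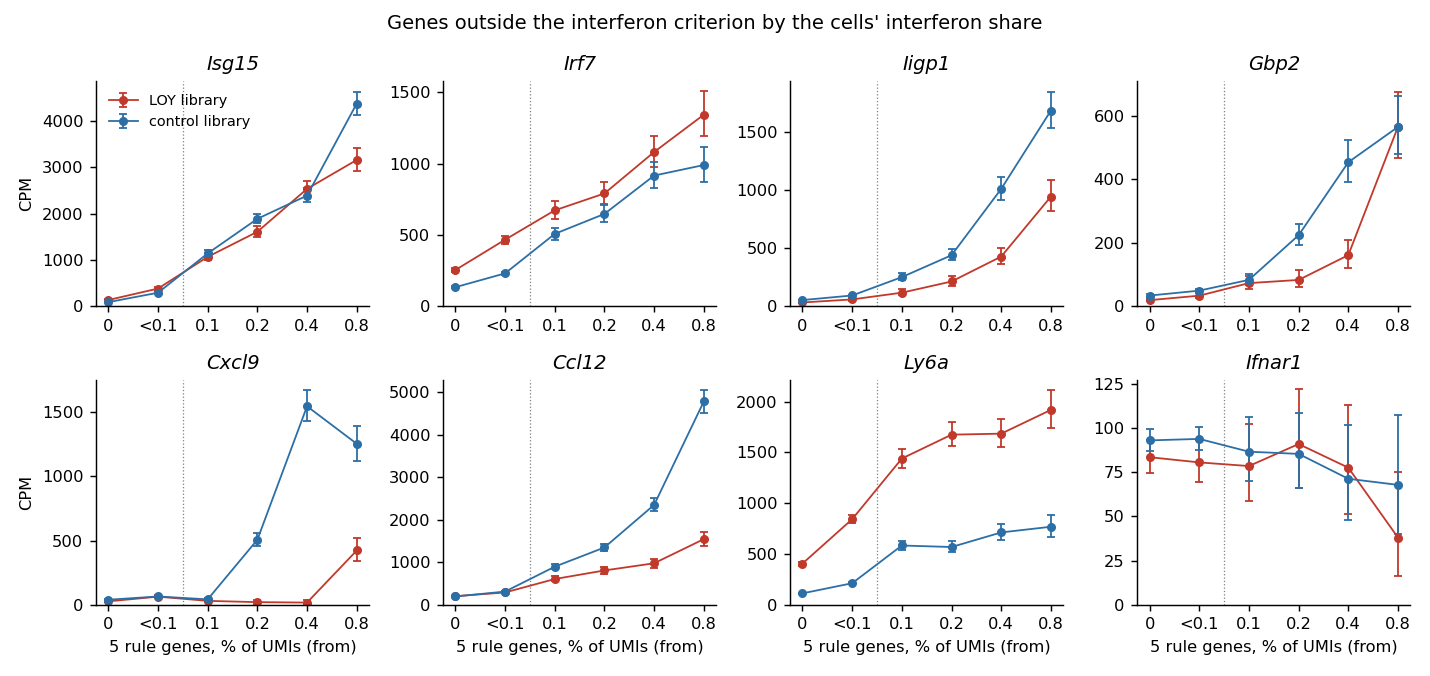
CPM (y axis, from 0) of 8 genes outside the interferon criterion against the share of a cell's UMIs taken by the 5 rule genes (x axis, lower bound of each step in %; the dotted line marks the members' threshold), in the LOY library (red) and the control library (blue); bars are exact Poisson 95% intervals. Isg15 and Irf7 climbed over the steps in both libraries, Cxcl9 was 30.5, 20.7, 17.2 and 423 CPM over the 4 LOY member steps and 42.4, 507, 1546 and 1254 CPM over the control ones, and Ifnar1 did not climb.

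Against the comparison macrophages, the members were higher in interferon-induced genes of nearly every role, and were not higher in the receptors. Calls here mean more than 1.5-fold on the scale log2((CPM + 10)/(CPM + 10)), over genes with at least 10 CPM in either group and 20 UMIs over both. Of 7062 genes measured in both libraries, 258 (3.65%) were higher in members in both and 7 (0.0991%) were lower in both. Within the LOY library 313 of 7432 genes (4.21%) were higher and 70 (0.942%) lower, and within the control library 329 of 7574 (4.34%) were higher and 36 (0.475%) lower. This contrast was made by the rule, so the counts describe the cells and support nothing further. Isg15, a ubiquitin-like protein that is attached to others during infection, was the most abundant of the 15 genes outside the rule with the highest ratio in the weaker library. It had 1767 CPM in LOY members and 224 CPM in LOY comparison macrophages, and 1911 CPM in control members and 182 CPM in control comparison macrophages. The other 14 were Ifit3b, Cmpk2, Ifi205, Usp18, Iigp1, Oasl1, Ifi208, Isg20, Gbp5, Gbp2, Herc6, Ifi211, Slfn1 and Ifi44.

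The antiviral effectors, proteins that act on viral RNA, entry or assembly, were higher in members for 32 of 35 genes measured in both libraries. Their median log2 ratio was 1.54 in the LOY library and 1.58 in the control library, against -0.04 over all measured genes in each. Cmpk2, a mitochondrial nucleotide kinase beside Rsad2 in the genome, had 151 CPM in LOY members and 12.0 CPM in LOY comparison macrophages, and 154 CPM in control members and 9.54 CPM in control comparison macrophages. Oasl1, of the oligoadenylate synthetase family, had 252 CPM in LOY members and 38.7 CPM in LOY comparison macrophages and 248 CPM in control members and 28.6 CPM in control comparison macrophages. Of the 3 that were not called in both, Ifitm2 had 1439 CPM in LOY members and 1577 CPM in LOY comparison macrophages. The Ifit, Gbp and Oas families hold near-identical copies, so the split of UMIs among relatives such as Ifit3 and Ifit3b is uncertain.

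Sensors and signalling parts were higher in part. Of 18 nucleic acid sensing genes 12 were higher in members in both libraries, among them Ddx58, which encodes the RNA sensor RIG-I, with 206 CPM in LOY members and 56.8 CPM in LOY comparison macrophages, and 184 CPM in control members and 39.0 CPM in control comparison macrophages. The adaptors Mavs, Ticam1 and Tmem173 (STING) were not called. Of 17 signalling genes 7 were higher in both. Stat2, a part of the complex that binds the ISRE, had 165 CPM in LOY members and 46.3 CPM in LOY comparison macrophages, and 169 CPM in control members and 44.1 CPM in control comparison macrophages. Irf7, a factor that amplifies interferon genes, had 870 CPM in LOY members and 332 CPM in LOY comparison macrophages and 668 CPM in control members and 178 CPM in control comparison macrophages. Irf3, Jak1, Tyk2 and Stat3 were not called. None of the 4 receptor chains was higher. Ifngr1 had 183 CPM in LOY members and 295 CPM in LOY comparison macrophages, a log2 ratio of -0.66, and 259 CPM in control members and 357 CPM in control comparison macrophages, a log2 ratio of -0.45.

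The members held almost no interferon transcripts themselves. Over 12 interferon genes the LOY members had 0 UMIs. The limit of 3 counts over the group was 1.73 CPM, and the exact Poisson upper bound was 2.13 CPM. The control members had 1 UMI, of Ifnb1, or 0.393 CPM (exact Poisson interval 0.00994 to 2.19). No interferon level beyond that 1 UMI was detectable at this depth.

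Immune regulators, cell death genes and parts of antigen processing were higher along with the effectors. Some genes are counted in several lists: Zbp1 is also among the antiviral effectors, and Tnfsf10 is also among the cell death genes. Of 14 immune regulation genes 11 were higher in both libraries. Tnfsf10 had 63.0 CPM in LOY members and 2.59 CPM in LOY comparison macrophages, and 48.3 CPM in control members and 4.58 CPM in control comparison macrophages. Cd274, the checkpoint ligand PD-L1, had 23.7 CPM in LOY members and 5.83 CPM in LOY comparison macrophages and 41.2 CPM in control members and 7.20 CPM in control comparison macrophages. Of 13 inflammatory cell death genes 5 were higher in both, among them Zbp1, a sensor of Z-form nucleic acids that can start necroptosis, with 516 CPM in LOY members and 150 CPM in LOY comparison macrophages and 499 CPM in control members and 113 CPM in control comparison macrophages. Of 18 MHC class I genes 5 were higher in both, including the peptide transporter gene Tap1, with 214 CPM in LOY members and 92.9 CPM in LOY comparison macrophages and 222 CPM in control members and 107 CPM in control comparison macrophages. The complement genes C3 and Cfb were the 2 of 7 that were higher.

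Inflammation, antigen presentation by MHC class II and macrophage identity were not called with the interferon genes. No gene of 13 in the inflammation and NF-kB list, of 8 in MHC class II, of 15 in macrophage identity, of 13 resident macrophage genes or of 25 immediate early and heat shock genes was higher in members in both libraries. Il1b, the cytokine interleukin 1 beta, had 199 CPM in LOY members and 247 CPM in LOY comparison macrophages, and 624 CPM in control members and 693 CPM in control comparison macrophages. Of 10 recruited monocyte genes Ms4a4c and Plac8 were higher in both, whereas Ccr2, the receptor that brings monocytes into tissue, had 252 CPM in LOY members and 283 CPM in LOY comparison macrophages and 313 CPM in control members and 429 CPM in control comparison macrophages. Transcripts of neutrophils were lower: S100a8 and S100a9 led the genes lower in members, and the 5 neutrophil markers summed to 128 CPM in LOY members and 357 CPM in LOY comparison macrophages, and to 131 CPM in control members and 239 CPM in control comparison macrophages. All 5 of these markers had a UMI in every group, and their part in the results was not tested.

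**Figure D3:**
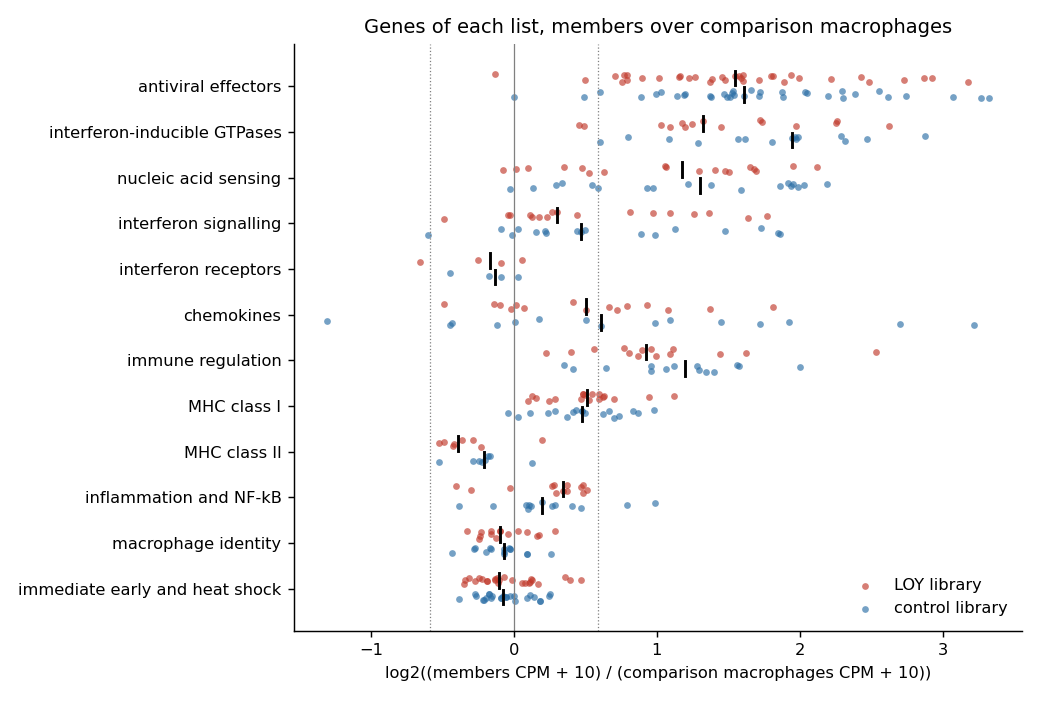
Log2 ratio of members over comparison macrophages (x axis) for each gene measured in both libraries, by list (rows), in the LOY library (red, upper) and the control library (blue, lower); black bars are medians and dotted lines mark 1.5-fold. Antiviral effectors have medians above 1.5 in both libraries, while the medians of the receptor, MHC class II and macrophage identity lists lie below 0.

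The core of the antiviral response was at like levels in LOY and control members. Members of both libraries had passed the same cut-off on 5 interferon genes. Like levels of genes that follow those 5 are thus partly set by the choice of cells. Over all 7591 genes measured, 584 (7.69%) were higher and 777 (10.2%) lower in LOY members than in control members. Of 36 antiviral effectors 2 were higher and 2 lower, with a median log2 ratio of -0.03 against -0.02 over all genes. The 2 that were higher, Ifi27l2a and Ifitm3, a restriction factor of viral entry, were higher in the comparison macrophages as well. Ifitm3 had 6593 CPM in LOY members and 3980 CPM in control members, and 3804 CPM in LOY and 1993 CPM in control comparison macrophages. The 2 that were lower were the oligoadenylate synthetase genes Oas1a, with 26.6 CPM in LOY and 69.1 CPM in control members, and Oas1g, with 8.66 CPM in LOY and 23.2 CPM in control members. Isg15 had a ratio of 0.925 (exact interval 0.884 to 0.968) in members and 1.23 (1.16 to 1.31) in comparison macrophages. Irf7 had a ratio of 1.30 (1.21 to 1.40) in members and 1.86 (1.76 to 1.97) in comparison macrophages. In the comparison macrophages 5 of 34 effectors were higher and 1 lower in the LOY library, with a median log2 ratio of 0.18, where 6.35% of all 7701 genes were higher and 7.65% lower.

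Interferon-inducible GTPases, which attack the membranes of vacuoles that hold microbes, were lower in LOY members. Of 16 measured 0 were higher and 9 lower, with a median log2 ratio of -0.61, where 7.69% of all 7591 genes were higher and 10.2% lower. The 9 were Iigp1, Gbp2, Gbp2b, Gbp3, Gbp4, Gbp6, Igtp, Irgm1 and Irgm2. Iigp1 had 307 CPM in LOY members and 584 CPM in control members, a ratio of 0.525 (0.475 to 0.581), with a UMI in 41.2% of LOY and 72.4% of control members. With cells thinned to 2000 UMIs these shares were 31.4% in the LOY and 49.0% in the control library. In the comparison macrophages Iigp1 had 41.4 CPM in the LOY library and 70.9 CPM in the control library, a ratio of 0.584 (0.509 to 0.669). Irgm1, a regulator of this family, had 80.3 CPM in LOY and 149 CPM in control members, and 23.1 CPM in LOY and 31.3 CPM in control comparison macrophages. In the comparison macrophages 3 of 12 GTPases were lower and 0 higher, with a median log2 ratio of -0.32. There 6.35% of all 7701 genes were higher and 7.65% lower. Socs1, a brake on the interferon receptors, had 13.3 CPM in LOY members (23 UMIs) and 49.5 CPM in control members (126 UMIs), a ratio of 0.269 (0.164 to 0.421), and in the comparison macrophages its ratio was 0.284 (0.170 to 0.451).

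Among the chemokines the difference varied by gene. Cxcl9, which draws T cells through Cxcr3, had 72.8 CPM in LOY members and 559 CPM in control members, a ratio of 0.130 (0.108 to 0.156). That interval takes each UMI as independent and leaves out the spread from cell to cell. The 10 highest cells held 92.9% of the Cxcl9 UMIs of LOY members and 80.7% of those of control members. In the comparison macrophages Cxcl9 had 40.3 CPM in the LOY library and 51.2 CPM in the control library, a ratio of 0.788 (0.682 to 0.907). Ccl12, a ligand of Ccr2 in the mouse, had 851 CPM in LOY members and 1679 CPM in control members, and 235 CPM in LOY and 249 CPM in control comparison macrophages. Its log2 ratio was -0.97 in members and -0.08 in comparison macrophages. Ccl2, another ligand of Ccr2, had 171 CPM in LOY members and 430 CPM in control members, but its log2 ratio in the comparison macrophages, -1.27, was close to the -1.28 in members. Ccl5 went the other way, with 259 CPM in LOY and 166 CPM in control members, and 179 CPM in LOY and 54.7 CPM in control comparison macrophages. In all, 2 of 16 genes of the chemokine list, which leaves out Cxcl10, were higher and 7 lower in LOY members. Of all 7591 measured genes, 7.69% were higher and 10.2% lower.

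**Figure D4:**
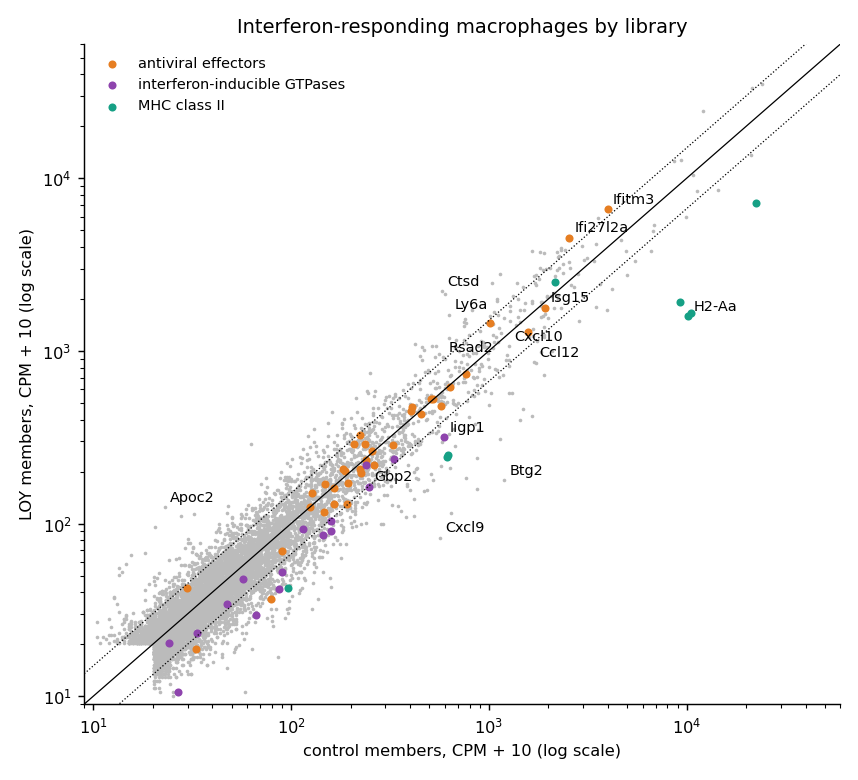
CPM + 10 of each measured gene in LOY members (y axis, log scale) against control members (x axis, log scale); the solid line marks equal levels and the dotted lines 1.5-fold, with 3 gene lists coloured. Most antiviral effectors lie within the dotted lines, 9 of 16 GTPases lie below them, and H2-Aa lies far below at 1585 CPM in LOY and 10144 CPM in control members.

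Of the 10 highest and 10 lowest genes in LOY against control members, all but Cxcl9 were past 1.5-fold in the same direction in the comparison macrophages. H2-Aa, a chain of MHC class II, had 1585 CPM in LOY members and 10144 CPM in control members, a ratio of 0.156, and in the comparison macrophages the ratio was 0.191. Over all measured genes, 10.2% were lower in LOY members and 7.65% in LOY comparison macrophages. Of 8 MHC class II genes 7 were lower in LOY members, and 8 of 9 were lower in LOY comparison macrophages. Of 18 MHC class I genes 10 were lower in LOY members, and 10 of 18 in LOY comparison macrophages. Of 25 immediate early and heat shock genes 19 were lower in LOY members and 20 in LOY comparison macrophages; digestion of tissue is known to induce such genes too. Btg2, an antiproliferative early gene, had 168 CPM in LOY and 1190 CPM in control members, and 185 CPM in LOY and 1266 CPM in control comparison macrophages. Their part in the results was not tested.

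The genes highest in LOY members were higher in LOY comparison macrophages too. Apoc2, an apolipoprotein, had 114 CPM in LOY members and 13 CPM in control members, and 121 CPM in LOY and 16.9 CPM in control comparison macrophages. Ctsd, a lysosomal protease, had 2211 CPM in LOY members and 570 CPM in control members, and 2385 CPM in LOY and 531 CPM in control comparison macrophages. Of 12 lipid-associated macrophage genes 7 were higher and 2 lower in LOY members, the same counts as in the comparison macrophages. Over all measured genes, 7.69% were higher and 10.2% lower in LOY members, and 6.35% and 7.65% in LOY comparison macrophages. Pmepa1, a target and brake of TGF-beta signalling, had 278 CPM in LOY members and 53.0 CPM in control members, and 273 CPM in LOY and 57.1 CPM in control comparison macrophages. Tgfb1, which encodes TGF-beta 1, had 253 CPM in LOY members and 190 CPM in control members, a log2 ratio of 0.39, under the 1.5-fold call, and a log2 ratio of 0.42 in the comparison macrophages. Ly6a, the surface protein Sca-1 and itself induced by interferon, had 1613 CPM in LOY and 620 CPM in control members, and 567 CPM in LOY and 159 CPM in control comparison macrophages. It was thus higher both with the library and with membership.

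Cxcl9 came from few members. A UMI was seen in 15 of 493 LOY members (3.04%, exact interval 1.71% to 4.97%) and 48 of 402 control members (11.9%, 8.94% to 15.5%). Thinned to 2000 UMIs, the shares were 2.96% of LOY members and 9.69% of control members. The 10 highest cells held 92.9% of the Cxcl9 UMIs of LOY members and 80.7% of those of control members. The highest cell had 33 UMIs in the LOY library and 250 in the control library. Cxcl9 was listed as a marker of these cells, but most members of either library had none of it, and it does not describe the whole group. Its cells were mostly cells with Cxcl10. A Cxcl9 UMI was seen in 4.71% of LOY members with and 1.26% without a Cxcl10 UMI, and in 19.0% and 4.57% of control members. Cxcl10 is a gene of the rule, so this overlap is partly set by the choice of cells. Without their Cxcl10 UMIs, 36 LOY members (7.30%) and 37 control members (9.20%) held under 3 UMIs of the rule's genes. Those 37 held 572 of the 1422 Cxcl9 UMIs of control members, with Isg15 at 379 CPM and Usp18 at 33.1 CPM. The 36 LOY members held 30 of the 126 Cxcl9 UMIs, with Isg15 at 656 CPM and Usp18 at 88.1 CPM.

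Members with Cxcl9 were richer in interferon-inducible GTPases and immune regulation genes in both libraries. Of the immune regulation genes 10 of 14 were higher with Cxcl9 and 0 lower in the LOY library, and 15 of 18 were higher and 0 lower in the control library. Gbp2, which acts at microbial membranes, had 837 CPM in the 15 LOY members with a Cxcl9 UMI and 129 CPM in the 478 without, and 886 CPM in the 48 control members with and 142 CPM in the 354 without. Irf1, the factor that drives many interferon gamma targets, had 536 CPM with and 102 CPM without in the LOY library and 391 CPM with and 141 CPM without in the control library. Cd40, a receptor for help from T cells, had 385 CPM with and 68.8 CPM without in the LOY library and 330 CPM with and 78.9 CPM without in the control library. By contrast Ifit3b had 285 CPM with and 194 CPM without in the LOY library and 214 CPM with and 212 CPM without in the control library. Usp18 had 318 CPM with and 276 CPM without in the LOY library and 186 CPM with and 231 CPM without in the control library. Not all interferon genes outside the GTPases went this way. Isg15 had 2026 CPM with and 1758 CPM without in the LOY library and 2933 CPM with and 1760 CPM without in the control library. Irf7 had 1373 CPM with and 852 CPM without in the LOY library and 959 CPM with and 625 CPM without in the control library. Of 16 GTPases measured in control members 11 were higher with Cxcl9 and 0 lower, where 6.17% of 7460 genes were higher and 14.5% lower. Of 36 antiviral effectors 4 were higher and 0 lower. In the LOY library 9 of 14 GTPases and 4 of 35 effectors were higher, where 15.4% of 6697 genes were higher and 31.9% lower, from only 15 cells. This split was chosen after the values were seen.

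Most resident macrophage genes were lower in the members with Cxcl9 in both libraries, and most recruited monocyte genes in the LOY library only. Over all genes, 31.9% of 6697 were lower with Cxcl9 in the LOY library, from only 15 cells. In the control library 14.5% of 7460 genes were lower. Of 13 resident macrophage genes measured, 10 were lower in LOY members with Cxcl9 and 0 higher, and 9 were lower and 1 higher in control members. Of the recruited monocyte genes 8 of 11 were lower and 1 higher in LOY members with Cxcl9, with a median log2 ratio of -1.28, and 3 of 10 were lower and 0 higher in control members, with a median of -0.45. Mrc1, the mannose receptor CD206, had 335 CPM with and 550 CPM without a Cxcl9 UMI in the LOY library, and 284 CPM with and 598 CPM without in the control library. Ccl5 had 1892 CPM with and 200 CPM without in the LOY library, and 528 CPM with and 113 CPM without in the control library.

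With the cells that held Cxcl9 set aside, the median log2 ratio of GTPases in LOY against control members was -0.51, against -0.61 over all members. The cells set aside were rich in GTPases and were 15 of 493 LOY but 48 of 402 control members. The ratio without these cells thus cannot show their part in the difference, which was not tested. Among members without a Cxcl9 UMI, 6 of 16 GTPases were lower in LOY members and 0 higher, with a median log2 ratio of -0.51, where 7.59% of 7631 genes were higher and 10.6% lower. Gbp2 then had 129 CPM in LOY and 142 CPM in control members, and Iigp1 had 287 CPM in LOY and 470 CPM in control members. Ccl12 had 857 CPM in LOY and 1668 CPM in control members. Cxcl10 had a log2 ratio of -0.26 over all members and of 0.14 among those without Cxcl9. A cell without a Cxcl9 UMI may still hold the transcript, the more so in the shallower LOY library.

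**Figure D5:**
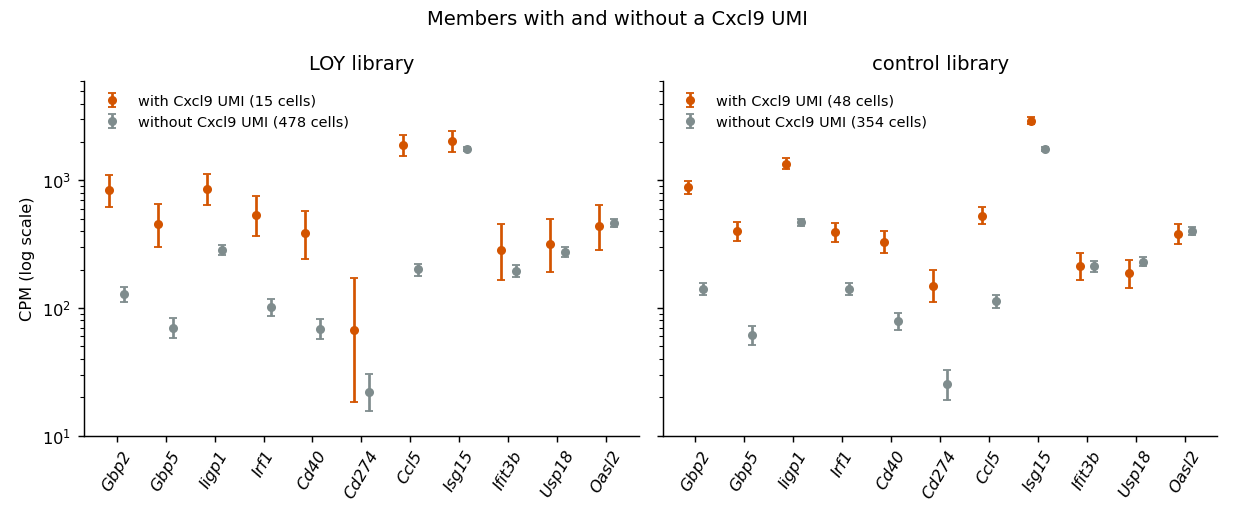
CPM (y axis, log scale) of 11 genes in members with (orange) and without (grey) a Cxcl9 UMI, in the LOY library (left panel) and the control library (right panel); bars are exact Poisson 95% intervals. Gbp2 is 837 against 129 CPM in the LOY panel and 886 against 142 CPM in the control panel, while Usp18 and Oasl2 lie close together in both. Isg15 is 2026 against 1758 CPM in the LOY panel and 2933 against 1760 CPM in the control panel.

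Transcripts of other cell types were present in the members and uneven between libraries. The cardiomyocyte markers summed to 70.5 CPM in LOY members and 78.2 CPM in control members, against 109 CPM in LOY and 74.7 CPM in control comparison macrophages. The NK cell markers summed to 9.82 CPM in LOY members, with Ncr1, Klrb1c and Gzma at 0, and 2.36 CPM (6 UMIs) in control members, against 6.31 CPM in LOY and 10.2 CPM in control comparison macrophages. The fibroblast markers summed to 45.6 CPM in LOY members and 12.2 CPM in control members, against 3.88 CPM in LOY and 11.4 CPM in control comparison macrophages, with Col1a1 at 0 in LOY members. The endothelial markers summed to 9.82 CPM in LOY members and 68.0 CPM in control members, and to 13 CPM in LOY and 20.8 CPM in control comparison macrophages. In the control members most of that sum was Fabp4, at 48.3 CPM, and 10 cells held 90.2% of its UMIs. In the LOY members most of the fibroblast sum was Dcn, at 39.3 CPM from 4 cells. The B cell markers summed to 38.1 CPM in LOY members and 40.9 CPM in control members, the T cell markers to 9.24 CPM in LOY and 15.7 CPM in control members, and the dendritic cell markers to 8.66 CPM in LOY and 11.4 CPM in control members, with Flt3 at 0 in members of both libraries. Their part in the results was not tested.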

How the data were processed

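The values deposited by the authors were raw UMI counts per gene and barcode from a 10x Genomics 3′ v3.1 kit, made with Cell Ranger 5.0.0 on the build mm10, per the submitters' processing notes; the barcode filter is not given in the sources used here. UMIs were summed over the members, or the comparison macrophages, of each library and scaled to CPM (Python 3.11.15, numpy 2.4.6, scipy 1.17.1, pandas 2.3.3). A gene was measured at 10 CPM in either group and 20 UMIs over both, and was called past 1.5-fold with 10 CPM added, which understates differences of low genes. Sums have exact Poisson intervals, shares Clopper-Pearson intervals and ratios exact conditional intervals, at 95%, and a count of 0 is given the limit of 3 counts. With 1 library per group nothing was tested. The calls and intervals were checked on simulated counts only, and the outcome is not given here. Intervals for sums and ratios take each UMI as independent and leave out the spread from cell to cell. The check thus lends them no support where few cells hold most UMIs of a gene, as for Cxcl9 and Dcn.

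The members and the 30 gene lists (356 of 358 symbols among the features) were chosen with earlier results of these data known. Named genes were the rule's genes, the given markers, measured members of the effector, signalling, receptor, GTPase and chemokine lists, the 2 highest and 2 lowest of other lists, the 10 highest and 10 lowest LOY over control ratios at 50 CPM or more, the 15 highest and 10 lowest over the comparison macrophages, Y-linked genes and Tgfb1. Other genes named, such as Cd40, Mrc1 and Ly6a, were chosen after their values were seen. Doublets were scored with scrublet (scanpy 1.11.5): its own threshold marked 0 LOY and 88 control cells, so doublets were kept, and removing 235 LOY and 391 control cells with the highest scores was an alternative. Gene positions came from GENCODE M21. The values of 1 signalling gene are not reported here.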

Additional observations from a re-analysis of the deposited data

How the results depend on the processing

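The share of interferon-responding macrophages was higher in the LOY library under all settings tried, from 1.38 times the control share with at least 5 interferon UMIs to 1.98 times with no exclusions. The share was 5.73% of LOY and 3.30% of control cells with interferon UMIs at 0.2% or more, 8.13% and 4.93% with Cxcl10 left out, 16.1% and 8.14% with no exclusions, 11.1% and 6.90% thinned to 2000 UMIs, and 19.3% and 11.6% of macrophages that met the other criteria. Thinned to 1000 UMIs it was 7.45% and 3.95%, 1.88 times. At least 5 interferon UMIs left 7.42% of LOY cells, and at most 5% mitochondrial UMIs gave 6.37% of control cells.

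Counts of genes depended on the added CPM. With 1 CPM added, 984 genes were higher and 1317 lower in LOY than in control members, and with 50 CPM added 200 and 220. Against comparison macrophages, 135 genes were higher in both libraries with 50 CPM. The number lower in both was 43 with 1 CPM, 1 with 50 CPM, 14 with per-cell means, 26 thinned to 2000 UMIs and 25 at 0.2%. No called value changed sign. Of the values of named genes, 974 moved by less than their counting error and 196 moved by more, 53 of them with 50 CPM added. Removing the members highest in Cxcl9, or all with a Cxcl9 UMI, was chosen after seeing the data; without the 10 highest per library the log2 ratio of Cxcl9 was -2.98. No paired analysis was possible because each group was 1 library. Leaving out a replicate was not possible either. The depth of the LOY library limits genes under 10 CPM, and causes of the differences between settings were not tested.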
